A study of Ovis aries with 12 samples.

Results

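The mitosis genes are 42 genes whose products carry a cell through division, from the kinase that starts mitosis to the ring that cuts the daughter cells apart. They were taken by symbol from the authors' expression table, and all 42 were found among its 21257 genes. The list was chosen by function among cell division genes, with their higher values on the succinate diets than on the basal diet already known, so every contrast with the basal diet is given here as a description. The contrasts between succinate diets use no basal library and were tested, though the values of the same succinate libraries entered that choice.

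Mitosis is driven by CDK1 with its cyclins, which condense the chromosomes and build the spindle. Kinetochores then tie each chromosome to spindle microtubules, and a checkpoint holds the cell until all are attached. The anaphase-promoting complex, an enzyme that marks proteins for destruction, next removes the cyclins, and cytokinesis separates the daughters. Most of these genes are transcribed in late S, G2 and M phase and are silent in resting cells, so in a tissue their RNA is known as a mark of dividing cells. In bulk tissue, fewer dividing cells and less of the RNA in each of them cannot be told apart.

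RNA was sequenced from 12 libraries of Tan sheep (Ovis aries), each animal 5 months old, with 3 libraries for each of 4 diets: a basal diet with no added succinate, and that diet with 0.5%, 1% or 2% succinate, an acid of the tricarboxylic acid cycle. The trial held 36 sheep, 9 per diet, and the labels do not say which animal gave which library or whether animals were pooled, so p-values measure the spread between these libraries. The labels name no tissue, and the title of the study speaks of rumen epithelial cells.

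The libraries held 15489883 to 18717309 reads assigned to genes. The smooth muscle list summed to 35670 to 63210 FPKM (fragments scaled by gene length and library size) in a library, while the list of 14 stratified epithelium markers, 13 of them in the table, summed to 0.356 to 1.17 FPKM. KRT5, KRT15, KRT4, KRT1, TP63, IVL and DSG3, which define that epithelium, had 0 reads in all 12 libraries, so the markers of the cells in the title were at or near 0. Libraries also differed in how their values ran with gene length: the Spearman correlation across genes between a gene's deviation from its mean and its length was 0.524 and 0.392 in replicates 2 and 3 of the 1% diet, -0.575 in replicate 2 of the 0.5% diet, and between -0.308 and 0.238 in the other 9. The mitosis genes had a median length of 3004 bases, against 3120 over all genes tested. Their lengths ran from 787 bases in UBE2C to 11286 in MKI67, so a trend with length can bear on them unequally.

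The mitosis genes were scarce on the basal diet and higher in mean on each succinate diet. The sum of reads over the 42 genes was 93.0, 82.7 and 123.1 CPM (reads scaled to library size) in basal diet replicates 1, 2 and 3. At 0.5% succinate it was 486.3, 101.8 and 178.9, at 1% it was 189.4, 660.0 and 168.6, and at 2% it was 365.8, 341.3 and 443.5 CPM. The sums of the 2% libraries, from 6265 to 6935 reads each, all lay above those of the basal libraries, from 1337 to 1982 reads each. At the lower doses the libraries of a diet spread widely, and replicate 2 of the 0.5% diet, at 101.8, lay inside the basal range. The widest 95% Poisson interval among the 12 sums was 647 to 673 CPM, in replicate 2 of the 1% diet; such intervals cover counting error only.

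**Figure D1:**
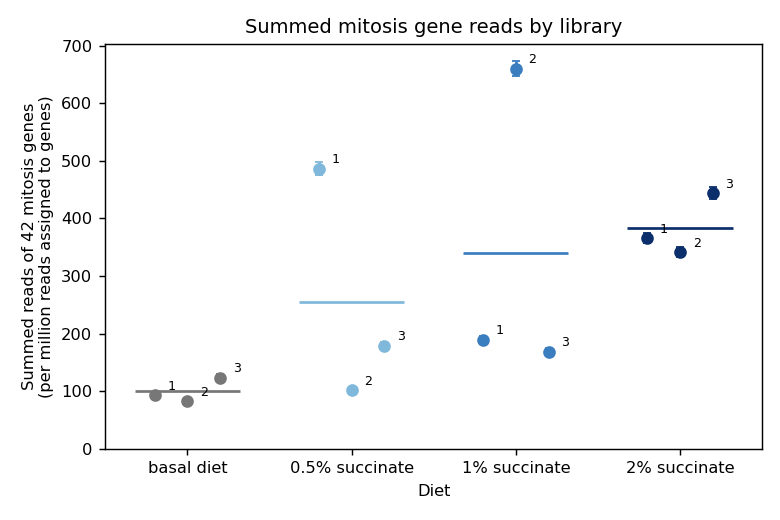
Summed reads of the 42 mitosis genes in CPM (y axis) in each library, by diet (x axis); points are libraries with their replicate number and 95% Poisson interval, and horizontal lines are means of 3 libraries. The 2% libraries sit between 341.3 and 443.5, above the basal libraries at 82.7 to 123.1, while replicate 1 of the 0.5% diet (486.3) and replicate 2 of the 1% diet (660.0) stand far above the others of their diets.

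By gene, the median ratio of mean FPKM over basal was 3.42 at 0.5%, 4.60 at 1% and 5.90 at 2% succinate. The same median over the 14779 genes tested with a basal mean above 0 was 0.909, 0.977 and 0.989. At 2% succinate the 3 libraries lay above all 3 basal libraries in 40 of 42 mitosis genes, against 7.18% of the 14807 genes tested. NUF2 and NCAPH were the exceptions. At 1% succinate 25 of 42 lay above without overlap, against 7.19% of genes tested, and at 0.5% it was 14 of 42, against 1.94%. None lay below all basal libraries at 0.5%, 1% or 2%, against 9.61%, 9.57% and 6.32% of genes tested. The log2 difference was above 0 for 40, 41 and 41 of 42 at the rising doses, against 30.8%, 46.9% and 48.5%.

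None of the 42 passed limma's moderated test with Benjamini-Hochberg adjustment over all genes tested in any of these contrasts, where 0% of genes passed. The adjusted p of the mitosis genes was 0.9995 for each at 2%, 0.231 to 0.902 at 1% and 0.897 to 0.973 at 0.5%. At an unadjusted p under 0.05 there were 36 mitosis genes at 2% succinate (1.66% of genes tested, higher), 19 at 1% (6.96%) and 9 at 0.5% (1.03%), all higher. None was lower at that p at 2%, 1% or 0.5%, where 1.73%, 10.4% and 3.73% of genes tested were. These counts moved with single libraries, as did the number of all 14807 genes under that p in either direction, given in parentheses below. In the fit of all 12 libraries that number was 705, 2575 and 502 at 0.5%, 1% and 2%. The 9 at 0.5% became 0 without replicate 1 (578) and 24 without replicate 2 (660) of the 0.5% diet. They became 2 without basal replicate 1 or 2 (1117 and 463) and 19 without replicate 2 of the 1% diet (652). Without replicate 1 or 2 of the 2% diet they became 5 (607 and 603), and with the replicate number as a block also 5 (630). The 19 at 1% became 5 without replicate 2 (1414) and 33 without replicate 3 (1251) of the 1% diet. They became 10 without basal replicate 1 or 2 (1877 and 1579) and 29 without replicate 1 of the 0.5% diet (2586). The 36 at 2% became 22 without replicate 3 of the 2% diet (353), and 27 to 38 without any other library (316 to 696). The limma-voom test on recovered reads also called 0 in each contrast, with 35, 19 and 8 at an unadjusted p under 0.05 at 2%, 1% and 0.5%, where 455, 2453 and 694 of the 14807 genes were, in either direction. A fit of only the 2% and basal libraries called 5 as higher at an adjusted p of 0.0265 each: ANLN, AURKB, CKAP2, KIF20A and TOP2A, among 8 of 14807 genes called in all. That fit leaves out the 0.5% and 1% libraries, and 1087 of the 14807 genes had an unadjusted p under 0.05 in it, against 502 with all 12 libraries. The 5 calls are a description, since the list was chosen with its higher values than on the basal diet known. AURKB among them had 2 reads in the basal libraries. The cause of the added calls was not tested.

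**Figure D2:**
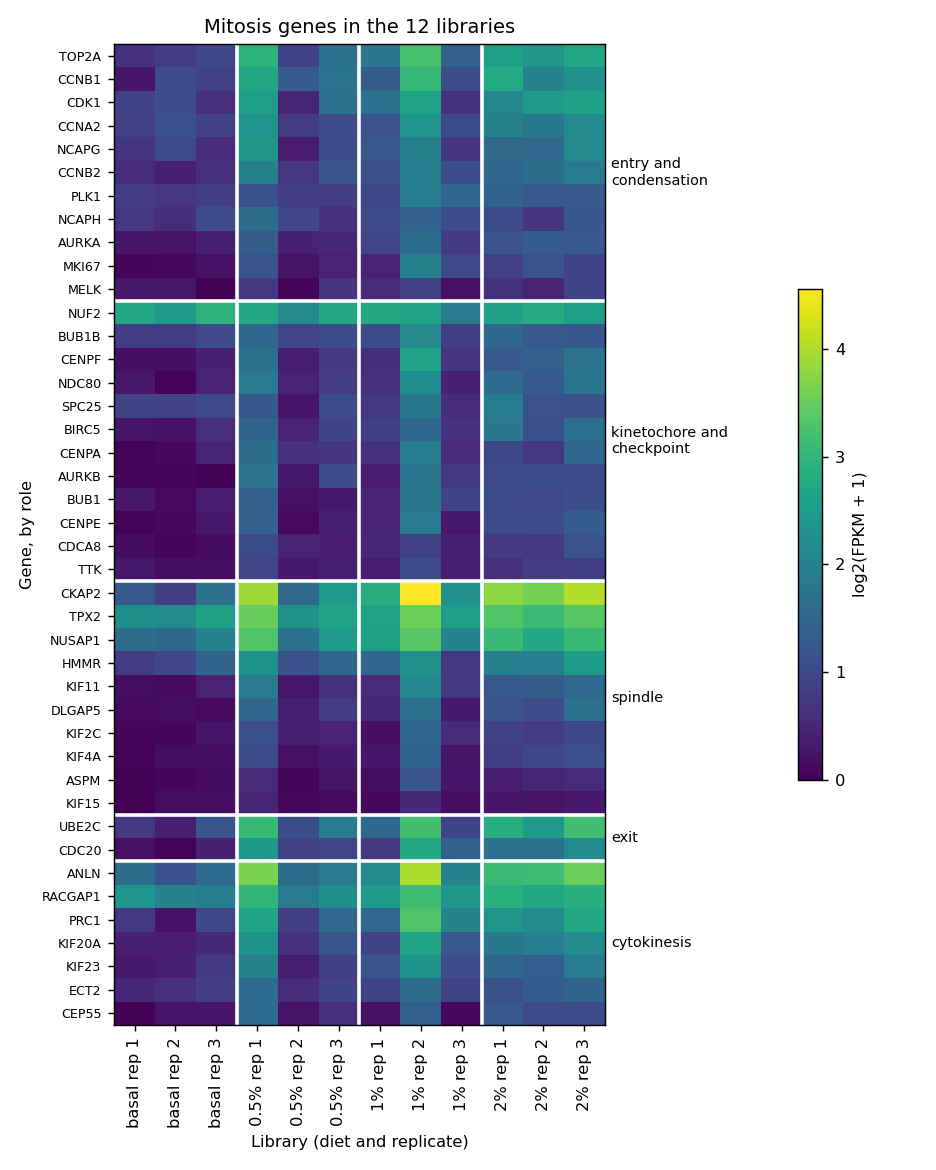
Level of each mitosis gene in each library as log2(FPKM + 1) (colour), with genes in rows by role and the 12 libraries in columns by diet. Basal columns are dark in most rows, 2% columns are evenly brighter, and the brightest columns at 0.5% and 1% are replicate 1 and replicate 2; the row of NUF2 is bright throughout.

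Of the 11 genes of mitotic entry and chromosome condensation, all had a higher mean on each succinate diet than on the basal diet, with a median ratio of 3.00 at 0.5%, 3.17 at 1% and 4.82 at 2%. The 3 most abundant were TOP2A, CCNB1 and CDK1. TOP2A, the topoisomerase that untangles DNA before chromosomes part, lies on chromosome 11 from 40375580 to 40401944 in the authors' table, whose build is not given in the sources used here. It had 0.565, 0.761 and 0.975 FPKM on the basal diet, 6.74, 0.886 and 2.24 at 0.5%, 2.48, 8.38 and 1.69 at 1%, and 4.98, 4.30 and 5.47 at 2% succinate, replicates 1 to 3 each. Its log2 difference at 2% was 1.75 (SE 0.49). The 2% libraries were close together and all above the basal ones, while replicate 2 of the 0.5% diet lay inside the basal range.

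CCNB1, cyclin B1, the activating partner of CDK1, had 0.198, 1.09 and 0.850 FPKM on the basal diet, 5.46, 1.48 and 2.36 at 0.5%, 1.53, 7.19 and 1.05 at 1%, and 5.93, 2.96 and 3.87 at 2%. The 2% and 0.5% libraries all lay above the basal ones; at 1%, replicate 3 did not. CDK1, the kinase that starts mitosis, had 0.884, 1.15 and 0.551 FPKM on the basal diet, 4.82, 0.387 and 2.26 at 0.5%, 2.26, 5.26 and 0.580 at 1%, and 3.25, 4.53 and 5.06 at 2%. Only the 2% libraries were all above the basal range for CDK1.

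MKI67, which coats mitotic chromosomes and is the source of the Ki-67 stain for dividing cells, had 0.0593, 0.0767 and 0.160 FPKM on the basal diet, 1.26, 0.180 and 0.374 at 0.5%, 0.375, 3.00 and 1.01 at 1%, and 0.823, 1.28 and 0.890 at 2%. Every succinate library lay above every basal library for MKI67, and its ratio of means at 1%, 14.9, was the highest of the entry genes. MKI67 is the longest of the mitosis genes, at 11286 bases, and values in replicates 2 and 3 of the 1% diet rose with gene length. The part of length in that ratio was not tested. It lies on chromosome 22 from 46994294 to 47023810. CCNB2, the other mitotic B cyclin, and AURKA, a kinase of the spindle poles, likewise had every succinate library above every basal one, with ratios at 2% of 4.82 and 5.82.

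CCNA2, a cyclin of S phase and early mitosis, averaged 3.04 ± 0.481 FPKM at 2% and 0.946 ± 0.188 on the basal diet (SD, n = 3 each). PLK1, a kinase of mitotic entry and exit, was 1.54 ± 0.181 against 0.721 ± 0.0594, and MELK, a kinase abundant in dividing cells, 0.611 ± 0.270 against 0.150 ± 0.130 FPKM in the same groups. NCAPG and NCAPH are subunits of condensin I, which compacts chromosomes. NCAPG averaged 2.43 ± 0.836 FPKM at 2% against 0.716 ± 0.279, but NCAPH 1.04 ± 0.387 against 0.761 ± 0.293, with overlapping libraries.

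The 12 kinetochore and checkpoint genes held both the highest and the lowest ratios. AURKB, the kinase that releases faulty attachments, had 70 reads in the 2% libraries and 2 in the basal libraries, a ratio of CPM of 33.1 (95% exact conditional interval 8.83 to 279, counting error only). At 0.5% and 1% it had 82 and 67 reads, with ratios of 38.5 (10.3 to 323) and 32.8 (8.74 to 277). At 2% its libraries stood at 1.05, 1.04 and 1.10 FPKM, the narrowest relative spread of any mitosis gene, with a coefficient of variation of 2.88%. These values rest on 23, 25 and 22 reads. Counting error at such numbers is wider than that spread, so it does not show a tighter level of AURKB.

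NUF2, a subunit of the NDC80 complex that grips microtubules, did not share the pattern. It lies on chromosome 1 from 115017860 to 115058745 and had 5.63, 4.54 and 6.67 FPKM on the basal diet, 5.58, 3.40 and 5.52 at 0.5%, 5.84, 5.26 and 2.66 at 1%, and 5.07, 6.01 and 4.82 at 2%. The log2 difference at 2% was -0.06 (SE 0.25). The diets overlapped, and its basal mean, 5.61 FPKM, was the highest among the 42 genes. NDC80, its partner in the complex, averaged 1.97 ± 0.473 FPKM at 2% against 0.210 ± 0.173 on the basal diet, so the FPKM of NUF2 was far above that of NDC80 on the basal diet and less so at 2%. SPC25, another subunit, was 1.74 ± 0.907 against 0.934 ± 0.0749.

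BUB1B, a checkpoint protein, had 0.796, 0.746 and 1.01 FPKM on the basal diet, 1.89, 0.933 and 1.10 at 0.5%, 1.14, 3.42 and 0.783 at 1%, and 1.86, 1.45 and 1.37 at 2%. Its values at the lower doses overlapped the basal ones. CENPF, a large protein of the outer kinetochore, had 0.142, 0.138 and 0.342 FPKM on the basal diet, 2.17, 0.284 and 0.685 at 0.5%, 0.517, 5.24 and 0.619 at 1%, and 1.47, 1.67 and 2.32 at 2%. Both the 2% and the 1% libraries lay above the basal ones.

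CENPE, a kinetochore motor, had the next highest ratio of this role at 2%, 11.3, followed by CDCA8, a subunit of the complex that holds AURKB at the centromere, at 9.65. BIRC5, survivin, of the same complex, had a ratio of 6.39, CENPA, the histone that marks the centromere, 6.99, BUB1, a checkpoint kinase, 5.28, and TTK, the kinase that starts the checkpoint, 4.40.

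All 10 spindle genes had higher means at each dose, with a median ratio of 4.12 at 0.5%, 7.37 at 1% and 7.36 at 2%, and in all 10 the 2% libraries lay above the basal ones. CKAP2, which binds spindle microtubules, was the most abundant mitosis gene over the 12 libraries, at 8.06 FPKM. It lies on chromosome 10 from 21846054 to 21867678 and had 1.45, 0.774 and 2.29 FPKM on the basal diet, 13.9, 1.98 and 4.47 at 0.5%, 6.19, 22.5 and 3.96 at 1%, and 12.7, 11.2 and 15.2 at 2%. Every 1% and 2% library lay above the basal range, and its difference in mean log2(FPKM + 1) at 2%, 2.52 (SE 0.61), was the largest of the 42.

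TPX2, which activates AURKA on the spindle, had 3.83, 3.46 and 5.04 FPKM on the basal diet, 10.2, 4.02 and 5.18 at 0.5%, 5.21, 10.5 and 4.89 at 1%, and 8.95, 7.59 and 9.40 at 2%. NUSAP1, a microtubule bundling protein, had 2.10, 1.86 and 3.08 on the basal diet, 8.81, 2.25 and 4.69 at 0.5%, 4.99, 9.29 and 3.05 at 1%, and 7.39, 5.73 and 7.36 at 2%. These genes were already well above 1 FPKM on the basal diet, and their ratios at 2% were among the smaller ones, 2.10 and 2.91.

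DLGAP5, a spindle assembly protein, had the highest spindle ratio at 2%, 14.5, followed by the chromosome motor KIF4A at 10.6 and the microtubule depolymerase KIF2C at 8.98. KIF11, the motor that pushes the spindle poles apart, had a ratio of 8.34, ASPM, a spindle pole protein, 6.38, HMMR, which links microtubules to the poles, 3.07, and KIF15, a motor that backs up KIF11, 2.53. KIF15 was the scarcest of the 42 by FPKM, at 0.175 over the 12 libraries, and had 30 reads in the basal libraries together. The ratios of DLGAP5, KIF4A and KIF2C rested on fewer basal reads, 16, 20 and 13.

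The exit genes act with the anaphase-promoting complex, CDC20 as its activator and UBE2C as its ubiquitin-conjugating enzyme. CDC20 had 0.148, 0.0376 and 0.340 FPKM on the basal diet, 4.41, 0.836 and 0.967 at 0.5%, 0.695, 5.57 and 1.67 at 1%, and 2.31, 2.21 and 3.57 at 2%. The log2 difference at 2% was 1.64 (SE 0.47). All 9 succinate libraries were above the basal range, and the ratio of means was 11.8 at 0.5%, 15.1 at 1% and 15.4 at 2%. These ratios rested on 14 reads of CDC20 in the basal libraries together. At 0.5% and at 1%, 1 library stood far above the others of its diet. UBE2C had 0.696, 0.314 and 1.34 FPKM on the basal diet, 7.36, 1.14 and 2.79 at 0.5%, 1.89, 8.04 and 0.913 at 1%, and 6.23, 4.62 and 7.88 at 2%. For UBE2C the low libraries of the 0.5% and 1% diets fell inside the basal range.

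The 7 cytokinesis genes had a median ratio of 3.18 at 0.5%, 4.40 at 1% and 4.90 at 2%, with every 2% library above every basal one in all 7. ANLN, anillin, a scaffold of the contractile ring, lies on chromosome 4 from 62379297 to 62546115. It had 2.04, 1.23 and 2.00 FPKM on the basal diet, 11.5, 2.04 and 2.66 at 0.5%, 3.58, 15.0 and 3.11 at 1%, and 7.61, 7.83 and 10.4 at 2%. The 2% libraries were well apart from the basal ones, and replicate 2 of the 0.5% diet sat at the basal upper edge.

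RACGAP1, a subunit of the complex that sets the site of cleavage, had 4.23, 3.04 and 2.88 FPKM on the basal diet, 6.99, 2.63 and 3.76 at 0.5%, 4.63, 7.88 and 4.35 at 1%, and 6.46, 5.42 and 6.32 at 2%. PRC1, which bundles the microtubules between the parting chromosomes, had 0.665, 0.164 and 0.987 on the basal diet, 5.34, 0.793 and 1.93 at 0.5%, 1.93, 8.87 and 3.11 at 1%, and 4.12, 3.54 and 5.67 at 2%. For both genes the 1% and 2% libraries lay above the basal range and the 0.5% libraries overlapped it.

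KIF20A, a motor of the same bundle, had 0.326, 0.269 and 0.437 FPKM on the basal diet, 4.03, 0.561 and 1.27 at 0.5%, 0.900, 5.36 and 1.40 at 1%, and 2.60, 2.88 and 3.58 at 2%. All succinate libraries were above all basal ones for KIF20A, whose ratio at 2%, 8.77, was the highest of the cytokinesis genes. CEP55, which completes the final cut, had a ratio at 2% of 8.21, KIF23, the partner of RACGAP1, 4.90, and ECT2, the activator of the contractile ring, 2.57.

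**Figure D3:**
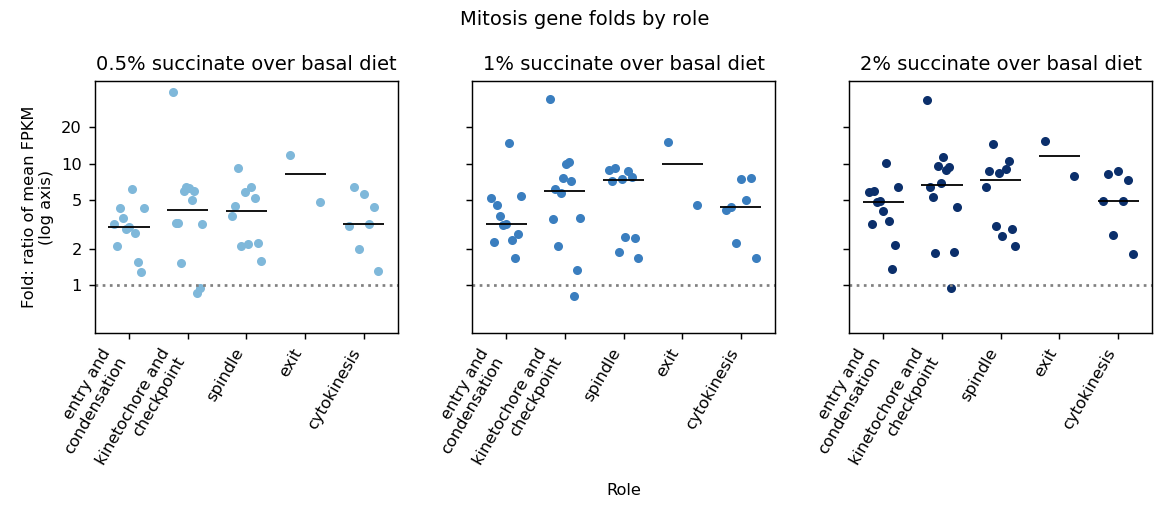
Ratio of mean FPKM on each succinate diet over the basal diet (y axis, log scale) for each mitosis gene, by role (x axis); each point is a gene and each black line the median of its role. Points lie above 1 in every role except for NUF2 at all doses (0.861, 0.817 and 0.944) and SPC25 at 0.5% (0.954), and AURKB lies highest in each panel on 2 basal reads.

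The libraries of a diet differed widely at the lower doses. At 0.5% succinate, replicate 1 was the highest of its diet in 42 of 42 mitosis genes, with a median ratio of 3.70 over the mean of the other two. At 1%, replicate 2 was the highest of its diet in 41 of 42, with a median ratio of 3.97. Over all 12 libraries, replicate 2 of the 1% diet had the highest value in 31 genes and replicate 1 of the 0.5% diet the second highest in 22. Both exceeded all 3 of the 2% libraries in many genes: 35 of 42 for replicate 2 of the 1% diet and 25 of 42 for replicate 1 of the 0.5% diet.

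The coefficient of variation within a diet, as a median over the 42 genes, was 47.4% on the basal diet, 87.0% at 0.5%, 88.2% at 1% and 19.9% at 2% succinate. Over the 7986 tested genes with a mean level in the range of the mitosis genes it was 24.1%, 29.1%, 31.7% and 20.1%. The mitosis genes thus varied about as much as those genes within the 2% diet and more than them within the other 3 diets. That range was set by the mean over the 12 libraries, so levels were not matched within a diet. On the basal diet 35 of the 42 mitosis genes had a mean under 1 FPKM. The part of counting error in their basal spread was not tested.

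**Figure D4:**
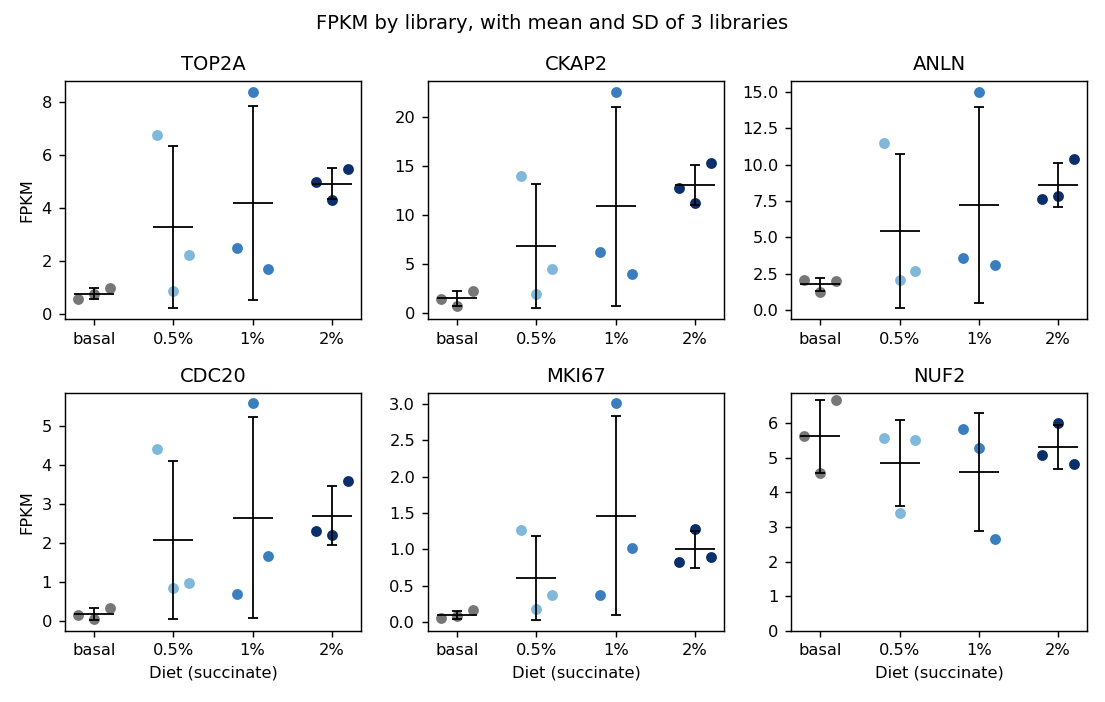
FPKM (y axis) of 6 mitosis genes in each library by diet (x axis); points are libraries, and black bars are the mean and SD of 3 libraries. TOP2A, CKAP2, ANLN, CDC20 and MKI67 show 1 high library at 0.5% and at 1% and a tight 2% group, while the 4 diets of NUF2 overlap.

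Taken singly, each succinate library but replicate 2 of the 0.5% diet had most mitosis genes above all 3 basal libraries. The count was 41, 14 and 35 of 42 in replicates 1, 2 and 3 of the 0.5% diet, against 21.2%, 17.7% and 14.2% of all genes tested. It was 36, 41 and 28 of 42 at 1%, against 21.1%, 31.9% and 35.4%, and 40, 40 and 41 of 42 at 2%, against 25.3%, 25.4% and 21.0%.

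The median of the 42 differences in mean log2(FPKM + 1) moved with these libraries. At 0.5% against basal it was 0.54, and 0.22 without replicate 1 and 0.84 without replicate 2 of the 0.5% diet. At 1% against basal it was 0.72, and 0.33 without replicate 2 and 0.36 without its replicates 2 and 3. At 2% against basal it was 0.99, and leaving out any library of those diets kept it between 0.93 and 1.04. With the trend with gene length removed from each library the medians were 0.63, 0.76 and 0.98 at the rising doses. Over all genes tested they were -0.10, -0.02 and -0.01 as measured.

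The genes varied together across the 12 libraries. Pearson's r of a gene's log2(FPKM + 1) with the mean deviation of the other 41 was 0.833 or above for 38 genes, up to 0.991 for TOP2A. It was 0.771 for PLK1, 0.722 for SPC25, 0.690 for NCAPH and 0.204 for NUF2. These values describe 12 libraries that share their depth and diets with every gene. By the same measure, ARHGAP11A (0.989), SHCBP1 (0.985), DIAPH3 (0.980), CENPN (0.978) and SPAG5 (0.972) were the non-member genes most like the mitosis genes over 12 libraries, followed by DEPDC1 (0.971), NEK2 (0.969), PIMREG (0.963), PBK (0.956) and FANCD2 (0.951). All but SHCBP1, DIAPH3 and FANCD2 were in the lists of other mitosis genes described next. FANCD2, a DNA repair protein, averaged 0.653 ± 0.154 FPKM at 2% and 0.0956 ± 0.0127 on the basal diet (SD, n = 3 each), and DIAPH3, an actin nucleator, 2.09 ± 0.547 and 0.186 ± 0.116.

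Differences between succinate diets were tested over all 14807 genes, and 0 of 42 mitosis genes passed in any pair by limma, where 0% of genes passed. At an unadjusted p under 0.05, 1 was higher at 1% than at 0.5% (11.6% of genes tested), and 0 at 2% against 0.5% (4.96%) and at 2% against 1% (6.09%). None was lower at that p, against 6.4%, 1.1% and 3.21% of genes tested in the same pairs. The limma-voom test called 0 in each pair, with 1, 1 and 0 higher at an unadjusted p under 0.05. By that test 2637, 955 and 1291 of the 14807 genes were under it, in either direction. The limma counts moved with single libraries, as did the number of all 14807 genes under that p in either direction, given in parentheses. The count at 2% against 0.5% became 25 without replicate 1 of the 0.5% diet (1115) and 5 without replicate 2 of the 1% diet (819). That at 2% against 1% became 19 without replicate 2 of the 1% diet (836). That at 1% against 0.5% became 9 without replicate 1 of the 0.5% diet (2655) and 3 without replicate 1 of the 1% diet (4618). PLK1 averaged 1.89 ± 0.897 FPKM at 1% and 0.920 ± 0.266 at 0.5%, a log2 difference of 0.55 (SE 0.21, adjusted p = 0.219 by limma), and MKI67 1.46 ± 1.37 and 0.605 ± 0.576, a log2 difference of 0.53 (SE 0.33, adjusted p = 0.401). PLK1 was the single mitosis gene whose 3 libraries at 2% all lay above the 3 at 0.5%, against 13.2% of genes tested. None lay above without overlap at 1% against 0.5% (10% of genes tested) or at 2% against 1% (7.08%), and none lay below in the 3 pairs (4.86% at 1% against 0.5%, 2.99% at 2% against 0.5% and 5.19% at 2% against 1%).

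At 2% against 0.5% the smallest p belonged to BIRC5, with a log2 difference of 0.59 (SE 0.29), and AURKA, with 0.51 (SE 0.25), both at an adjusted p of 0.777 by limma. At 2% against 1% it belonged to BIRC5, with 0.53 (SE 0.29, adjusted p = 0.531), and HMMR, with 0.64 (SE 0.38, adjusted p = 0.543). The medians of the 42 log2 differences were 0.12 at 1% against 0.5%, 0.45 at 2% against 0.5% and 0.27 at 2% against 1%, with 34, 41 and 36 of 42 above 0, against 58.8%, 66.4% and 52.5% of genes tested. They were 0.42 and 0.79 for the pairs with 0.5% when its replicate 1 was left out, and -0.11 and 0.19 without its replicate 2. At 1% against 0.5% the median was 0.05 without replicate 3 of the 0.5% diet, and 0.29, -0.22 and 0.36 without replicates 1, 2 and 3 of the 1% diet. At 2% against 1% it was 0.09, 0.66 and 0.04 without replicates 1, 2 and 3 of the 1% diet. At 1% against 0.5% the median was nearer 0 with other scalings: it was 0.03 with 25 of 42 above 0 after quantile normalization, 0.07 with 32 after trimmed-mean scaling and 0.07 with 28 after removal of the length trend. Without replicate 2 of the 1% diet 7 of 42 were above 0 in that pair. The calls that some alternatives made, up to 3 genes in these pairs, are given in the closing section. A dose order among the succinate diets was not detectable with 3 libraries a diet, which does not show equal levels.

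Of 109 other mitosis genes listed beside the 42, 107 were in the table and 104 were tested. None passed limma's test at any dose, and 37 of 104 had all 2% libraries above all basal ones, against 7.18% of genes tested; it was 18 at 1% (7.19%) and 11 at 0.5% (1.94%). Their median log2 difference was 0.02 at 0.5%, 0.15 at 1% and 0.18 at 2%, below those of the 42. At 2% the largest differences belonged to CKS2, a CDK1-binding protein, at 7.50 ± 3.11 FPKM against 1.87 ± 0.427 on the basal diet, and DEPDC1, at 2.07 ± 0.869 against 0.155 ± 0.159 (SD, n = 3 each). The lowest belonged to MYBL2, a transcription factor of mitotic genes, at 2.54 ± 0.944 against 3.82 ± 0.309, and NCAPH2, a subunit of condensin II, at 12.9 ± 1.54 against 17.4 ± 1.74.

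At 1% succinate the largest differences of that list belonged to SPC24, the remaining subunit of the NDC80 complex, at 1.21 ± 0.972 FPKM against 0.140 ± 0.129, and NCAPD2, a condensin I subunit, at 11.7 ± 3.66 against 5.82 ± 1.51. The lowest belonged to CENPC and CENPQ, proteins of the inner kinetochore, at 4.50 ± 1.47 against 6.97 ± 0.511 and 2.68 ± 1.17 against 4.23 ± 1.15. At 0.5% they were CKS2, at 5.58 ± 4.36 against 1.87 ± 0.427, and CENPN, at 1.54 ± 1.33 against 0.389 ± 0.103, while CENPC was 4.61 ± 0.731 against 6.97 ± 0.511 and WEE1, the kinase that restrains CDK1, 8.56 ± 0.641 against 12.6 ± 2.24. CENPN stood at 2.23 ± 0.110 FPKM at 2%.

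The 36 DNA replication genes listed beside them were all tested, and none passed. Their median log2 difference was -0.04 at 0.5%, -0.04 at 1% and -0.02 at 2%, and 7 of 36 had all 2% libraries above all basal ones, against 7.18% of genes tested. At an unadjusted p under 0.05, 4 of 36 were higher at 2%, against 1.66% of genes tested. RRM2, the small subunit of ribonucleotide reductase, had the largest log2 difference of that list at every dose: 2.28 ± 2.56 FPKM at 0.5%, 1.55 ± 1.30 at 1% and 2.20 ± 0.161 at 2%, against 0.126 ± 0.168 on the basal diet. Next in size were TK1 at 0.5%, with 0.589 ± 0.239 against 0.131 ± 0.0463 FPKM, CDT1 at 1%, with 6.67 ± 3.70 against 2.84 ± 1.20, and TYMS at 2%, with 3.94 ± 1.06 against 2.66 ± 1.75. UHRF1, which maintains DNA methylation at replication, was named after its values were seen: it averaged 0.634 ± 0.610 FPKM at 0.5%, 0.606 ± 0.587 at 1% and 0.566 ± 0.0757 at 2%, against 0.125 ± 0.0240 on the basal diet. The lowest at 0.5% and 1% were PRIM1, a primase subunit, with 8.96 ± 1.83 and 7.39 ± 4.42 FPKM, against 12.7 ± 2.40 on the basal diet, and GMNN. GMNN, geminin, which blocks a further round of replication, was 6.14 ± 0.314 FPKM at 0.5%, 4.84 ± 1.25 at 1% and 6.13 ± 0.971 at 2%, against 8.61 ± 1.48 on the basal diet. At 2% the lowest were GMNN and LIG1, a DNA ligase, with 2.89 ± 1.20 against 4.06 ± 0.801. The difference between these lists was not tested, since the 42 were chosen with their values known.

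**Figure D5:**
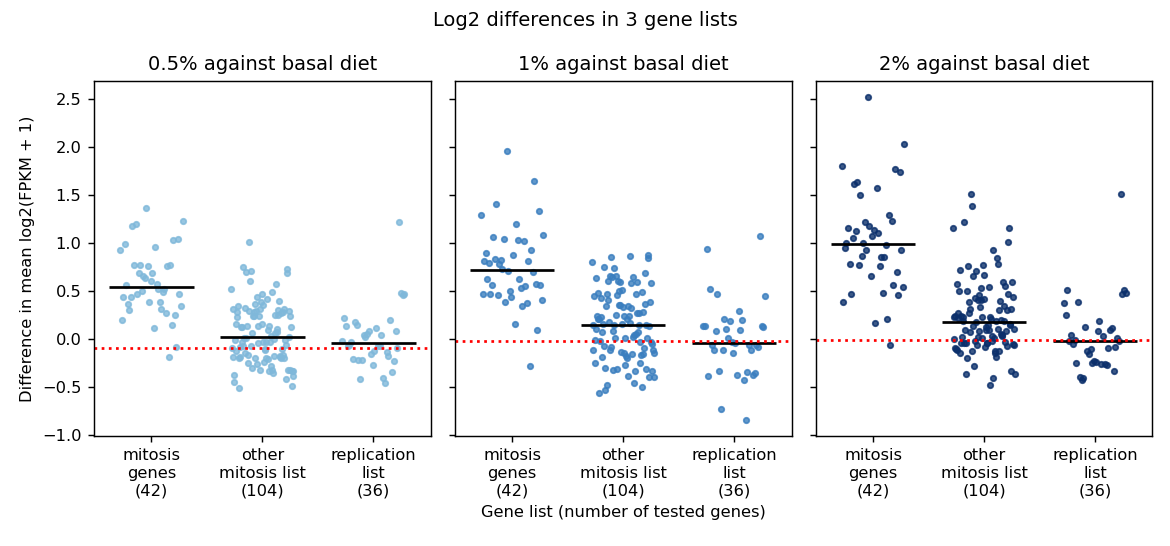
Difference in mean log2(FPKM + 1) between each succinate diet and the basal diet (y axis) for the 42 mitosis genes, 104 other mitosis genes and 36 replication genes (x axis); points are genes, black lines list medians and dotted red lines the median of all genes tested. At 2% the medians are 0.99, 0.18 and -0.02, and the highest replication gene is RRM2.

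Marker lists of other cells also differed between diets or libraries. Of 12 macrophage and dendritic cell markers, 11 were in the table and none was at 0. Their sum was 100.5 to 220.2 FPKM at 0.5%, 149.9 to 187.4 at 1% and 130.7 to 178.4 at 2%, against 170.6 to 320.1 on the basal diet. Lower without overlap were 4, 5 and 5 of 11 at 0.5%, 1% and 2%, against 9.61%, 9.57% and 6.32% of genes tested. The 13 smooth muscle markers, none at 0, summed to 48460 to 63210 FPKM at 0.5%, 36650 to 49210 at 1% and 35670 to 44370 at 2%, against 35770 to 40420 on the basal diet. Higher without overlap were 6, 1 and 0 of 13 at 0.5%, 1% and 2%, against 1.94%, 7.19% and 7.18% of genes tested. The sum of 7 adipocyte markers, none at 0, was lowest in the same libraries where mitosis genes were highest at 0.5% and 1%, at 53.1 and 70.1 FPKM. The other diets did not share this. On the basal diet it was highest, at 728.1, in replicate 3, where the mitosis gene sum was highest too. At 2% it was lowest, at 109.0, in replicate 2, where the mitosis gene sum was lowest too, and 278.2 FPKM in replicate 3, where that sum was highest. Its ranges were 53.1 to 197.0 at 0.5%, 70.1 to 219.8 at 1%, 109.0 to 924.3 at 2% and 106.0 to 728.1 on the basal diet. The part of these cells in the mitosis gene values was not tested.

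By the positions the authors gave, 8 of the 42 genes overlap another gene. BIRC5 and NCAPH share 714 and 4580 bases with a gene on the same strand, and CCNA2, PLK1, NCAPG, PRC1, KIF20A and ANLN overlap a gene on the opposite strand. The strand setting of the counting is not given in the sources used here, so reads of the opposite-strand pairs may not be told apart. No strand setting would separate the same-strand pairs. The genes that overlap BIRC5 and NCAPH averaged 57.7 and 1.645 FPKM over the 12 libraries, against 1.087 and 1.066 for BIRC5 and NCAPH.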

How the data were processed

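RNA was made into 12 libraries with a NEBNext Ultra II kit, per the labels' protocols; the submitters' processing notes name cutadapt 1.15, HISAT2 2.1.0 and HTSeq 0.9.1. The authors deposited FPKM for 21257 genes. FPKM times gene length gave whole reads, within 0.01 of a read, for 100% of values; the floor behind a count of 0 was taken as 3 reads, or 0.160 to 0.194 CPM by library. Values were transformed as log2(FPKM + 1), so differences of scarce genes come out smaller than their ratios. The 14807 genes with a mean of at least 0.1 FPKM over the 12 libraries were tested, and all 42 mitosis genes passed this filter. AURKB, ASPM, KIF15, CDCA8, KIF4A, KIF2C and MKI67, with basal means of 0.0318 to 0.0986 FPKM, passed only through their succinate libraries. The filter thus bears on their contrasts with the basal diet, which are a description. All 12 libraries entered 1 fit with diet as the factor, in limma 3.58.1 under R 4.3.3 (statmod 1.5.0), with an intensity trend and robust moderation; tests were two-sided, Benjamini-Hochberg adjusted, at a threshold of 0.05. The fit was tested on simulated data. An exact test of 3 against 3 cannot go below 0.1, so none is given.

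The mitosis genes and all lists were chosen with earlier results of these data known. Values of every library are given for the 3 most abundant genes of each role and for MKI67, TOP2A, CKAP2, ANLN and KIF20A; between succinate diets the 2 genes with the smallest p are named, from the other lists the 2 with the largest difference in each direction, and the 10 non-members most alike. Gene IDs matched a RefSeq table (ARS-UI_Ramb_v3.0) for 98.2% of genes, used for names and chromosomes; positions are those of the file. Same-numbered libraries were not treated as pairs, since the labels do not tie the numbers together and 5 of 18 correlations of their deviations were above 0.1. These 5 included all 3 of the 0.5% and basal pairs (0.220, 0.217 and 0.153), so the count with a replicate block is given for that contrast.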

Additional observations from a re-analysis of the deposited data

How the results depend on the processing

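In the contrasts between diets, 0 mitosis genes were called under every alternative run, with these exceptions. The fit of only the 2 diets compared called 5 at 2% against basal, of 8 genes called in all. Estimated library weights, which gave replicate 2 of the 1% diet a weight of 3.30, called 36 at 1% against basal, 2 at 1% against 0.5% and 3, all lower, at 2% against 1%, of 3641, 1549 and 2869 genes called among the 14807 tested. Without replicate 1 of the 1% diet, which leaves its libraries with a length trend, 8 were called at 1% against basal and 1, PLK1, at 1% against 0.5%, of 2512 and 2324 genes called. Leaving out libraries gave 0 to 8 calls at 1% against basal, 0 to 1 at 1% against 0.5%, and 0 in the other contrasts. The cause of these changes was not tested.

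The medians of the mitosis genes at 0.5%, 1% and 2% against basal were 1.25, 1.61 and 2.23 with a pseudocount of 0.1, and 1.61, 2.03 and 2.70 on the scale of limma-voom, which shrinks low values less; limma-voom gave 0.99 at 2% against 0.5%. Library weights gave 1.21 at 1% against basal, 0.68 at 1% against 0.5% and -0.28 at 2% against 1%. Leaving out 1 library gave 0.22 to 0.84 at 0.5%, 0.33 to 0.92 at 1% and 0.93 to 1.04 at 2% against basal, and -0.22 to 0.42 at 1% against 0.5%, 0.19 to 0.79 at 2% against 0.5% and 0.04 to 0.66 at 2% against 1%. The replicate block called 0 mitosis genes in all 6 contrasts. With the block 5, 13 and 32 had an unadjusted p under 0.05 at 0.5%, 1% and 2% against basal, against 9, 19 and 36 without it. Of the 14807 genes, 630, 2447 and 461 were under that p with the block, in either direction, and 705, 2575 and 502 without it. Library weights came from the gene-by-gene estimate, because the default one did not converge. Depth limits the scarcest genes: in the 3 basal libraries together AURKB had 2 reads, CDCA8 10, KIF2C 13, and CENPA and CDC20 14 each.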

Other observations

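Most other cell type marker lists overlapped between diets in their summed level. The 10 endothelial markers summed to 65.1 to 157.7 FPKM at 0.5%, 85.8 to 116.8 at 1% and 83.8 to 166.6 at 2%, against 75.9 to 157.7 on the basal diet. The 10 fibroblast markers summed to 1999 to 3278, 2431 to 3112 and 1954 to 3409 FPKM, against 1827 to 3158. For 10 of 11 T and natural killer cell markers the sums were 5.00 to 7.68, 5.27 to 7.91 and 3.71 to 10.5 FPKM, against 5.04 to 15.7. For 9 of 10 neuron and glia markers they were 42.8 to 59.3, 40.8 to 55.2 and 29.95 to 56.3 FPKM, against 28.9 to 75.7, and for 8 neutrophil and mast cell markers 3.98 to 10.2, 5.49 to 9.35 and 7.89 to 9.996, against 6.66 to 9.16. The sum of 9 B and plasma cell markers was 48.1 to 61.9 FPKM at 0.5%, 25.4 to 45.9 at 1% and 41.1 to 47.4 at 2%, against 49.6 to 58.7. Lower without overlap were 1 of 9 at 1% and 1 of 9 at 2%, against 9.57% and 6.32% of genes tested. XBP1, a factor of secretory cells, made up most of the sum, with 39.4, 36.6 and 41.8 FPKM at 2%, against 54.6, 45.6 and 43.6. For 4 of 6 red blood cell markers the sums were 0.270 to 1.28, 0.404 to 5.81 and 1.29 to 1.31 FPKM, against 0.338 to 6.03. In each sentence the succinate doses stand in rising order.

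Among transcription factors that act on mitotic genes, FOXM1 averaged 0.354 ± 0.376 FPKM at 0.5%, 0.727 ± 0.791 at 1% and 0.704 ± 0.283 at 2%, against 0.0291 ± 0.0203 on the basal diet (SD, n = 3 each). E2F1 averaged 1.42 ± 0.903, 1.30 ± 0.766 and 1.23 ± 0.249 FPKM, against 0.409 ± 0.0609. LIN54, a subunit of the complex that binds mitotic promoters, averaged 1.92 ± 0.570, 2.16 ± 0.450 and 2.41 ± 0.133 FPKM, against 2.12 ± 0.201. Of the 13 transcription factors tested, 4, 7 and 7 had a log2 difference above 0 at the rising doses, against 30.8%, 46.9% and 48.5% of genes tested. Their median log2 differences were -0.11, 0.01 and 0.01. The 3 named genes were chosen after their values were seen and belong to the list of other mitosis genes, of which none passed the test.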
